A study of Mus musculus with 9 samples.

Results

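Microglia identity genes are transcripts that mark microglia, the resident macrophages of the brain, against other brain cells. The set described here held 38 genes, chosen by symbol: known microglial receptors, adaptors, enzymes, transcription factors and other proteins. All 38 were among the 54513 genes of the deposited table, and all 38 passed the filter on low counts that left 18690 genes for testing. Poly(A) RNA of mouse tissue labelled hippocampus had been sequenced from 3 groups of 3 mice each. Every mouse ate a high-fat diet for 12 weeks, and the HFD group had nothing else. In the Trp group the amino acid tryptophan was added to that diet at 0.5% by weight. In the IPA group indole-3-propionic acid, a gut bacterial product of tryptophan, was given by daily oral gavage at 100 mg per kg body weight. The sources used here give no strain, age, transgene or vehicle gavage of the controls, and no chow-fed group was analysed here. The count columns carry codes of their own, which the labels tie to HFD, IPA and Trp without saying what the codes stand for. If those columns came from other animals than the diet study, the group names below would not describe diets, and the values would stand as differences between 3 coded groups.

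Microglia enter the brain early in development, renew themselves there, and depend on signals from their surroundings to stay what they are. The receptor CSF1R, which binds CSF1 and IL-34, keeps them alive, and TGF-beta signalling together with transcription factors such as PU.1 (gene Spi1), IRF8 and SALL1 maintains their programme. Many of the genes that mark them encode sensors at the cell surface, for ADP (P2RY12, P2RY13), for the neuronal chemokine fractalkine (CX3CR1), for lysophosphatidylserine (GPR34) and for lipids (TREM2 with its adaptor TYROBP). Several of these sensors are known to be turned down when microglia become activated.

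The stretch upstream of a gene carries letters that such transcription factors can bind, and PU.1 belongs to the ETS family, whose sites hold the core GGAA. Upstream sequences of RefSeq (build GRCm38.p6) could be matched for 31 of the 38 genes, and not for Selplg, Csf1r, Gpr34, Tyrobp, Tmem119, Spi1 and Unc93b1. The 250 bases before the start are shown for the 4 matched genes with the smallest unadjusted p for Trp against HFD, as examples among the members whose differences are described below. Capitals mark GAGGAA or GGAAGT on either strand, 2 spellings around the core that share the letters GGAA and can overlap. The windows lie at chr5:112255570-112255819 on the plus strand for Crybb1, and on the minus strand at chr3:59210883-59211132 for P2ry13, chr3:59262986-59263235 for P2ry12 and chr3:106790150-106790399 for Cd53.
Crybb1: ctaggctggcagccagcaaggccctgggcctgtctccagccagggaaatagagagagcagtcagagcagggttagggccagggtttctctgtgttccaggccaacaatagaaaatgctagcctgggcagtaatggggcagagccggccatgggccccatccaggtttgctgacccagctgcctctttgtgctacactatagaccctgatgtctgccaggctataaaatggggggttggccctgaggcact
P2ry13: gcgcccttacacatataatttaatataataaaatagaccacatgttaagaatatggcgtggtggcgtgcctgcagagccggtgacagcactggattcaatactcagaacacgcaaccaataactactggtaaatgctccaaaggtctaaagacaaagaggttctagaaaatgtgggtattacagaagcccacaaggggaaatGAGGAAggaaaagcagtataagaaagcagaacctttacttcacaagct
P2ry12: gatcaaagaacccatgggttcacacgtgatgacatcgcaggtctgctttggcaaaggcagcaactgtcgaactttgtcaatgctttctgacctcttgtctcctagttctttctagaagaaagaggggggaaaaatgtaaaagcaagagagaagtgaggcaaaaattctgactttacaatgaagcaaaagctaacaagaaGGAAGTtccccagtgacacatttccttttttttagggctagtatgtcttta
Cd53: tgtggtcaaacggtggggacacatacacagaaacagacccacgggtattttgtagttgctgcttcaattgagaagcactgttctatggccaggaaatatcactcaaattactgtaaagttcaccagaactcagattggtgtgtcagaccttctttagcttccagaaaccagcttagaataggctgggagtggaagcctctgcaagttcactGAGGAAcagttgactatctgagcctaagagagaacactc
In P2ry13 a GAGGAA began 48 bases before the start, in Cd53 another began 39 bases before it, and in P2ry12 a GGAAGT began 51 bases before it. Neither spelling was in the Crybb1 window. The bases right after the start were found in an annotated transcript of the gene (GENCODE M21) for P2ry13 and Cd53, and not for Crybb1 and P2ry12. For Crybb1 and P2ry12 the window therefore rests on the RefSeq start alone. Over all matched members, GAGGAA was in the 250-base windows of 15 of 31 genes (48.4%), against 25.9% of all 27025 genes with such windows. GGAAGT was in those of 14 of 31 (45.2%), against 22.2%. Longer or other spellings were rare: GAGGAAGT was found for 2 of 31 members, the ETS-IRF composite element for 1, a repeat of the IRF core for 1, TGAGTCA for 1, and the interferon-stimulated response element and TGACGTCA for 0. On either strand, 2.79%, 2.68%, 3.46%, 5.16%, 0.255% and 1.77% of all genes held them. These 8 spellings were picked with the expression values known, and a match is a string of letters and not a measured binding site.

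The 9 libraries held 40621084 to 50938746 counts each, with 23940 to 24947 genes detected, and log2 values of any 2 libraries correlated across genes at 0.974 to 0.988. The label of the tissue was checked against marker lists. The 10 genes of hippocampal principal cells, a list added after the files had been seen, had mean log2 values of 3.54 in HFD 3, 3.16 in Trp 1 and 2.52 in HFD 1, and of 1.04 to 2.23 in the other 6 libraries. The 12 striatal genes stood between 5.11 in HFD 3 and 7.34 in IPA 3, so transcripts that mark a neighbouring region were present in every library and in unequal amounts. Choroid plexus genes ranged from 0.16 in Trp 3 to 4.38 in Trp 1. The red blood cell genes summed to 572 to 2210 CPM (counts scaled to library size) in HFD and to 234 to 399 in the other groups. By the same sum the striatal genes held 743 to 3280 CPM over the 9 libraries and the hippocampal principal cell genes 92.2 to 250. The lists hold different genes, so these values do not settle how much of the tissue was hippocampus, and they do not bear out the label in every library. How far these differences in regional and blood markers enter the values below was not tested beyond the fits without HFD 3, Trp 1 or Trp 3 and with the striatal and choroid plexus means as covariates.

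Microglia identity genes made up a small and unequal part of the libraries. Their counts came to 0.046%, 0.0395% and 0.0405% of all counts in the HFD mice, to 0.041%, 0.0432% and 0.0421% in the IPA mice, and to 0.0517%, 0.0567% and 0.0676% in the Trp mice, here and below in the order of replicates 1 to 3. Each Trp library therefore lay above every HFD and IPA library, Trp 3 farthest. Because whole tissue was sequenced, a change in the number of microglia and a change in RNA per microglial cell cannot be told apart.

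**Figure D1:**
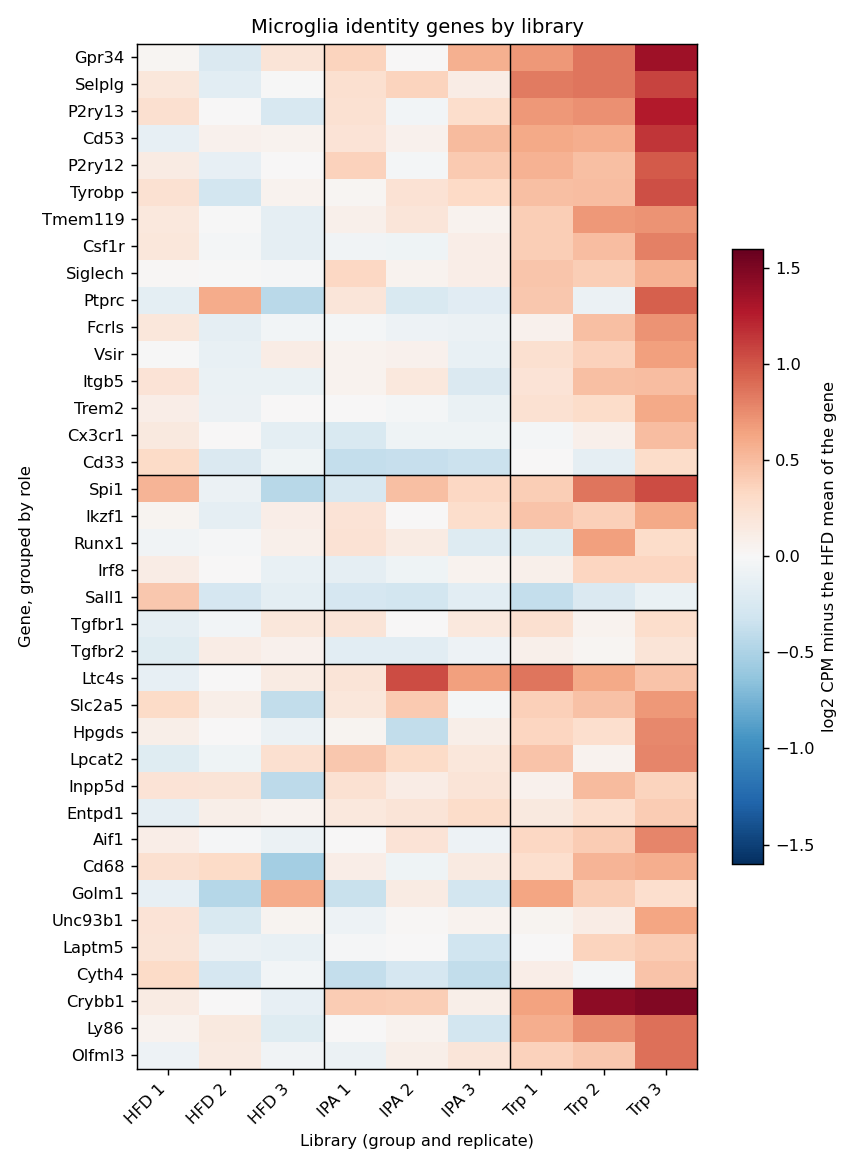
Each row is a microglia identity gene, each column a library, and the colour is the log2 CPM (counts scaled to library size) minus the gene's mean over the 3 HFD libraries. The Trp columns are mostly above the HFD mean, Trp 3 most of all with 37 of 38 genes above it, while the IPA columns have 22 to 24 genes above it.

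Set per kilobase of transcript (FPKM, which allows levels of different genes to be compared), the members covered a wide range. Tyrobp, the signalling adaptor, had the highest mean level over the 9 libraries, 14.7 FPKM, followed by the integrin subunit gene Itgb5 (12.8), Csf1r (10.3) and Tmem119 (9.17). Trem2 stood at 8.44, Selplg at 7.25, Cx3cr1 at 6.87 and P2ry12 at 6.06. The transcription factor genes were low, with Sall1 at 2.36, Irf8 at 1.31, Spi1 at 0.815, Ikzf1 at 0.525 and Runx1 last at 0.12. Neighbours in this order were often closer than their spread: Tyrobp ranged from 9.42 to 25.4 over the libraries and Itgb5 from 9.65 to 16.9.

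**Figure D2:**
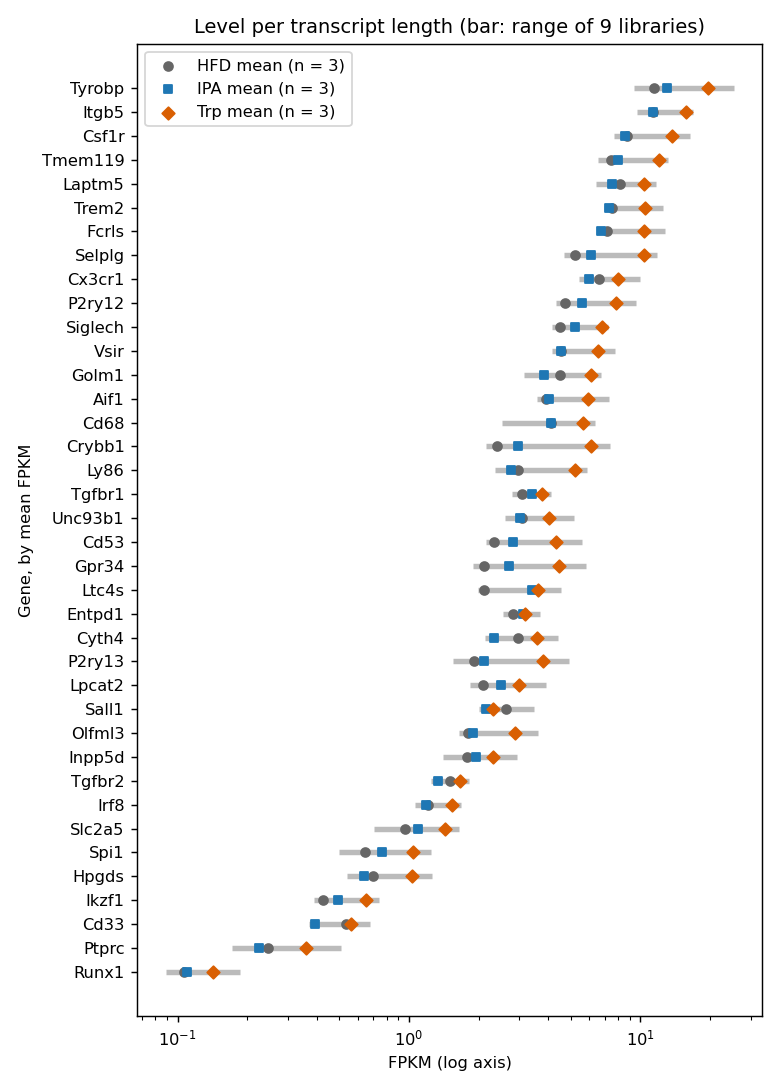
Points give the mean FPKM of each microglia identity gene in HFD, IPA and Trp on a log axis, and bars the range over the 9 libraries, ordered by the mean over all libraries. Levels run from 0.12 FPKM for Runx1 to 14.7 for Tyrobp, and the bars of most neighbouring genes overlap.

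The first comparison asked how tryptophan added to the high-fat diet altered these transcripts. In Trp against HFD, 37 of 38 microglia identity genes had a log2 fold change above 0, while 49.5% of all tested genes did. The median over the 38 was 0.45 and the range −0.27 to 1.24, beside a median of 0.00 over all genes. By the quasi-likelihood test of edgeR, with p adjusted over all genes after Benjamini and Hochberg, 2 members rose (Selplg and Crybb1) and 0 fell, where 0.214% of all genes were called higher and 0.128% lower. At an unadjusted p under 0.05, 24 members were higher and 0 lower, beside 5.76% and 5.54% of all genes. For 21 members (55.3%) every Trp library lay above every HFD library, beside 8.06% of all genes, and for 0 members it was the reverse, beside 7.43%.

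The number of calls moved with the method and with single libraries, and the sign of the median did not. DESeq2 called 13 members higher, where it called 1.06% of all genes higher. The authors' deposited table gives 10 of the 37 members it has values for with q under 0.05 and a higher level in Trp, where 0.835% of its genes are so called. Those were Selplg, Crybb1, Gpr34, P2ry13, Tmem119, P2ry12, Csf1r, Cd53, Ly86 and Siglech. In edgeR 1 member passed without each of HFD 1, HFD 2, IPA 1, IPA 2, IPA 3, Trp 2 and Trp 3, where 0.047% to 0.304% of all genes were called higher, and 5 without HFD 3, where 0.863% were. With only the 6 libraries compared, 0 members passed, beside 0.027% of all genes called higher. The median stayed between 0.33 and 0.55 under every alternative run.

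**Figure D3:**
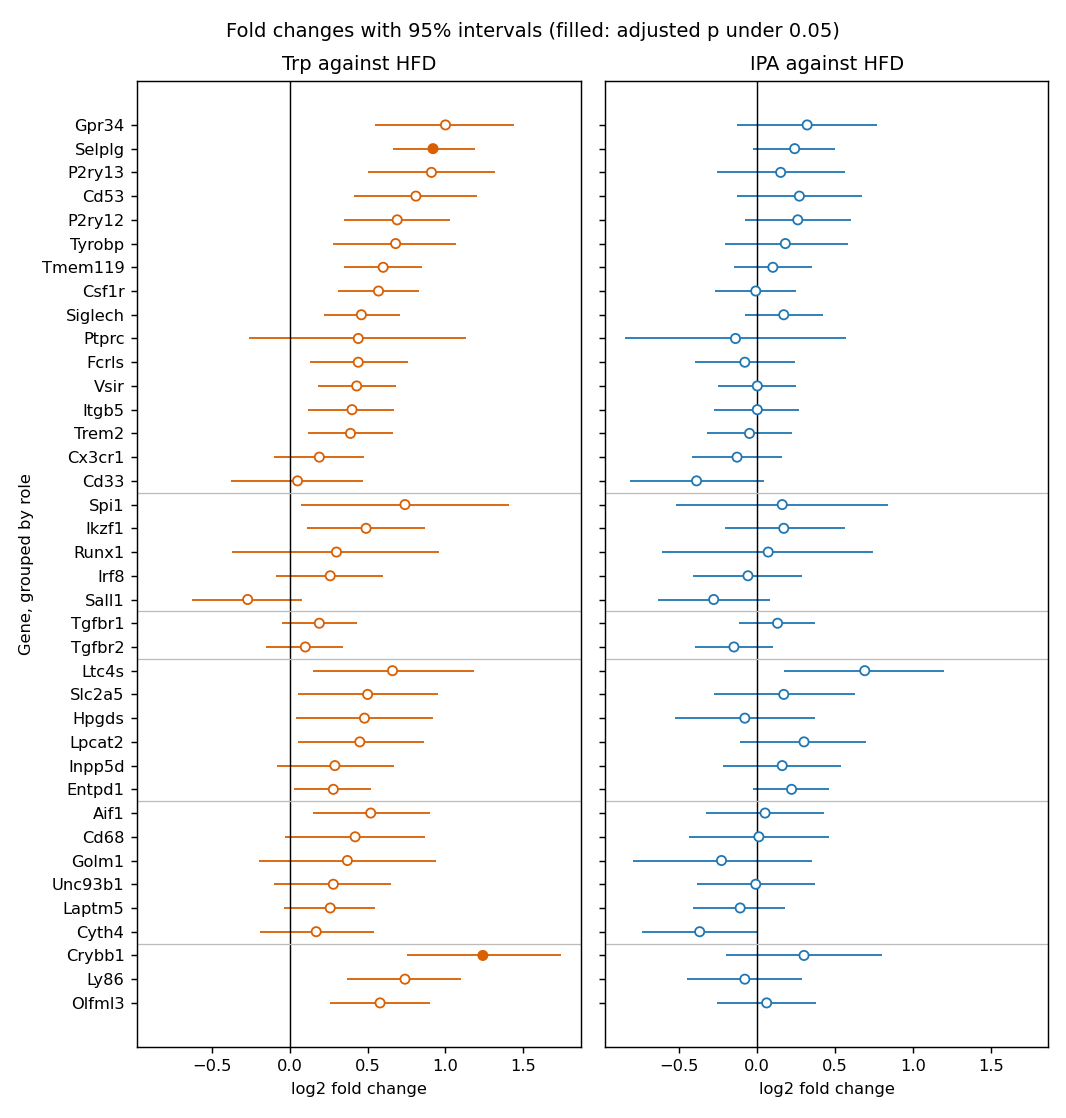
Log2 fold changes of the 38 microglia identity genes with 95% intervals in Trp against HFD and in IPA against HFD, grouped by role. Points are filled where the adjusted p was under 0.05. In Trp against HFD 37 points lie above 0, in IPA against HFD 22, and only Selplg and Crybb1 in Trp against HFD are filled.

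Surface receptors and adhesion molecules were the largest group. All 16 had a log2 fold change above 0 in Trp against HFD, with a median of 0.52, and 1 passed the test. Selplg encodes PSGL-1, the ligand through which leukocytes bind P-selectin, and is listed on chromosome 5 from 113956597 to 113970705, minus strand, in the table's coordinates, whose build is not settled. It stood at 12.2, 9.61 and 10.8 CPM in the HFD mice, at 12.9, 13.8 and 11.7 in the IPA mice, and at 19.3, 19.6 and 22.8 in the Trp mice. The Trp libraries were all above the rest, and those of IPA and HFD overlapped. Selplg rose 1.89-fold in Trp against HFD, a log2 fold change of 0.92 (SE 0.12, n = 3 against 3, edgeR adjusted p = 0.00803). The call was kept in 24 of 25 alternatives, and was lost with only the 6 libraries compared (edgeR adjusted p = 0.06).

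Tmem119 encodes a membrane protein used to tell microglia from other macrophages. It measured 21.1, 18.6 and 16.9 CPM in the HFD mice, 19.8, 21.4 and 19.5 in the IPA mice, and 24.7, 30.2 and 30.9 in the Trp mice. Every Trp library exceeded the other 6, yet the difference of 0.60 on the log2 scale (SE 0.12) just missed the threshold (edgeR adjusted p = 0.052). It passed in 8 of 25 alternatives, among them the looser threshold of 0.1, which that value meets by itself. Csf1r, the survival receptor, behaved much alike in its order of libraries. Its CPM were 51.9, 45 and 41.5 in the HFD mice, 43.9, 43.9 and 49.6 in the IPA mice, and 60.0, 64.5 and 80.7 in the Trp mice. Again the Trp libraries were on top, Trp 3 by a wide margin, with a log2 difference of 0.57 (SE 0.12, edgeR adjusted p = 0.0896). Exons of Csf1r overlap those of Hmgxb3 on the other strand, and the strand setting of the counting is not given in the sources used here.

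Several other receptor genes had Trp libraries above all HFD libraries without passing. P2ry12, the ADP receptor that steers microglial processes, stood at 12.4, 10.3 and 11.3 CPM in the HFD mice, at 14.6, 11 and 15.1 in the IPA mice, and at 16.7, 15.8 and 22.4 in the Trp mice. Its Trp libraries lay above all others, and the IPA libraries ran from the HFD range up to just below Trp (log2 difference 0.69 for Trp against HFD, SE 0.16, edgeR adjusted p = 0.108). Gpr34, the member with the largest difference in this role group, stood at 4.80, 4.00 and 5.41 CPM in the HFD mice, at 6.01, 4.68 and 7.02 in the IPA mice, and at 7.66, 8.5 and 12.2 in the Trp mice (log2 difference 1.00, SE 0.21, edgeR adjusted p = 0.0754). P2ry13, the second ADP receptor, differed by 0.91 (SE 0.19, edgeR adjusted p = 0.0752) and the tetraspanin gene Cd53 by 0.81 (SE 0.18, edgeR adjusted p = 0.108). In all 3 of these genes too, no HFD library reached the lowest Trp library. P2ry12 and P2ry13 lie inside Med12l and Gpr34 inside Cask, and P2ry12 exons overlap those of Med12l on the other strand.

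The lipid sensor TREM2 and its adaptor TYROBP signal together. Trem2 measured 12.1, 10.6 and 11.3 CPM in the HFD mice, 11.3, 11 and 10.4 in the IPA mice, and 13.3, 13.9 and 17.3 in the Trp mice, a log2 difference of 0.39 between Trp and HFD (SE 0.12, edgeR adjusted p = 0.26). Tyrobp measured 8.63, 5.95 and 7.65 CPM in the HFD mice, 7.48, 8.6 and 9.15 in the IPA mice, and 10.2, 10.3 and 15 in the Trp mice, a difference of 0.68 (SE 0.18, edgeR adjusted p = 0.185). For both genes the Trp libraries were above all others.

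Cx3cr1, the fractalkine receptor, did not follow that order. Its CPM were 30.8, 28.0 and 24.9 in the HFD mice, 23.6, 26.5 and 26.4 in the IPA mice, and 27.2, 29.4 and 39.2 in the Trp mice. Trp 1 and Trp 2 fell within the HFD range and only Trp 3 exceeded it. The log2 difference was 0.19 with a 95% interval of −0.10 to 0.48 (edgeR adjusted p = 0.651), and it ran from −0.06 to 0.30 over the alternatives. The other receptors with overlapping Trp and HFD groups were Cd33 (0.05), the CD45 gene Ptprc (0.44) and the scavenger-type receptor gene Fcrls (0.44), none past the threshold.

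**Figure D4:**
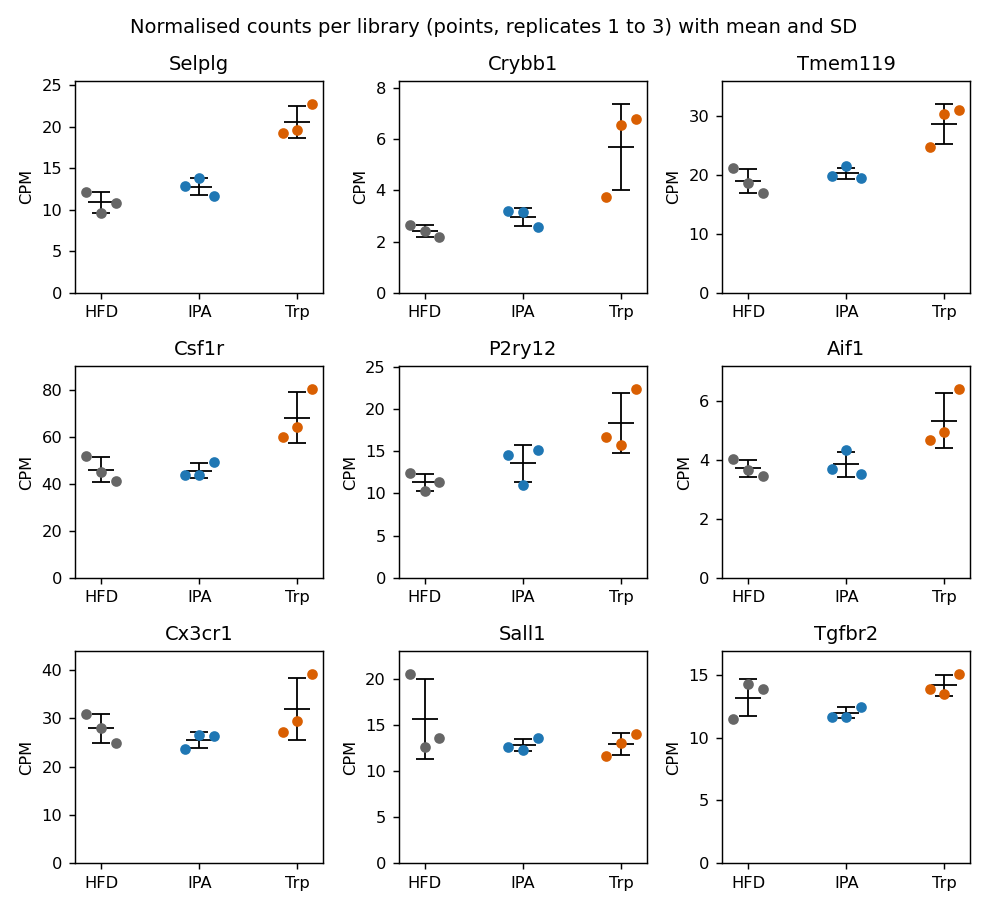
CPM of 9 microglia identity genes in each library, with points for replicates 1 to 3 of each group and bars for the mean and SD. Trp points are above all HFD points for Selplg, Crybb1, Tmem119, Csf1r, P2ry12 and Aif1, while Trp and HFD points overlap for Cx3cr1, Sall1 and Tgfbr2.

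Of the 5 transcription factor genes 0 passed, 4 had a log2 fold change above 0 and the median was 0.30. Sall1, needed to keep microglia in their resident state, was the exception among all 38 members. It stood at 20.5, 12.6 and 13.6 CPM in the HFD mice, at 12.6, 12.3 and 13.5 in the IPA mice, and at 11.6, 13 and 14 in the Trp mice. HFD 1 alone was high and the other 8 libraries lay between 11.6 and 14, so that the log2 difference of −0.27 for Trp against HFD (95% interval −0.63 to 0.08, edgeR adjusted p = 0.58) came down to −0.02 in the alternative nearest to 0.

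Spi1, the gene of PU.1, was scarce, with 1.73, 1.09 and 0.855 CPM in the HFD mice, 0.976, 1.65 and 1.49 in the IPA mice, and 1.56, 2.15 and 2.46 in the Trp mice. HFD 1 exceeded Trp 1, so the groups overlapped, and the log2 difference of 0.74 had an SE of 0.31 (edgeR adjusted p = 0.381). Irf8 differed by 0.26 (SE 0.16, edgeR adjusted p = 0.594), with 4.20, 3.87 and 3.56 CPM in the HFD mice, 3.50, 3.67 and 3.99 in the IPA mice and 4.09, 4.91 and 4.92 in the Trp mice. Ikzf1, which encodes the lymphoid and myeloid factor Ikaros, was the single factor gene without overlap between Trp and HFD. It stood at 2.57, 2.24 and 2.68 CPM in the HFD mice, 2.90, 2.51 and 3.03 in the IPA mice and 3.45, 3.26 and 3.81 in the Trp mice (log2 difference 0.49, SE 0.18, edgeR adjusted p = 0.316).

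The receptors through which TGF-beta acts differed little. Tgfbr1, the type I chain, measured 18.0, 19.3 and 22.5 CPM in the HFD mice, 22.9, 19.9 and 22.4 in the IPA mice, and 23.6, 20.6 and 24.1 in the Trp mice. Tgfbr2, the type II chain, measured 11.5, 14.3 and 13.9 CPM in the HFD mice, 11.7, 11.7 and 12.5 in the IPA mice, and 13.9, 13.5 and 15.1 in the Trp mice. The groups overlapped for both genes in Trp against HFD. The log2 differences were 0.19 (95% interval −0.05 to 0.43, edgeR adjusted p = 0.561) and 0.10 (−0.15 to 0.34, edgeR adjusted p = 0.808). Both genes are also made by other brain cells, so their levels are less tied to microglia than those of Selplg or Tmem119.

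Enzymes and transporters numbered 6, all above 0, with a median of 0.47 and 0 past the threshold. Ltc4s, leukotriene C4 synthase, measured 1.48, 1.63 and 1.78 CPM in the HFD mice, 1.88, 3.40 and 2.60 in the IPA mice, and 2.96, 2.51 and 2.26 in the Trp mice. Here both treated groups lay above HFD and overlapped each other (log2 difference 0.66 for Trp, SE 0.24, edgeR adjusted p = 0.316, and 0.69 for IPA, SE 0.24, edgeR adjusted p = 0.372). Entpd1, the gene of the ATP-cleaving enzyme CD39, showed the same order on a smaller scale, with 10, 11.8 and 11.5 CPM in the HFD mice, 12.5, 12.7 and 13.6 in the IPA mice, and 12.4, 13.4 and 14.6 in the Trp mice (log2 differences 0.28 and 0.22 from HFD, edgeR adjusted p = 0.376 for Trp).

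The 6 endolysosomal and intracellular genes were all above 0 in Trp against HFD, with a median of 0.32, and 0 passed. Aif1 encodes IBA1, the protein most used to stain microglia. Its CPM were 4.03, 3.67 and 3.47 in the HFD mice, 3.70, 4.34 and 3.52 in the IPA mice, and 4.68, 4.96 and 6.43 in the Trp mice. No HFD or IPA library reached the lowest Trp library, and the log2 difference of 0.52 (SE 0.17) had an edgeR adjusted p of 0.275. Cd68, a lysosomal glycoprotein gene, measured 5.95, 6.19 and 3.40 CPM in the HFD mice, 5.38, 4.76 and 5.51 in the IPA mice and 6.04, 7.30 and 7.50 in the Trp mice. Its Trp and HFD groups overlapped (log2 difference 0.42, SE 0.21, edgeR adjusted p = 0.478).

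The 3 remaining genes encode a crystallin and 2 secreted proteins, and all 3 had Trp libraries above every HFD and IPA library. Crybb1, a lens crystallin gene that microglia also express, is listed on chromosome 5 from 112403681 to 112417451, plus strand, in the table's coordinates. It stood at 2.63, 2.40 and 2.18 CPM in the HFD mice, at 3.18, 3.16 and 2.55 in the IPA mice, and at 3.76, 6.56 and 6.79 in the Trp mice. Trp 1 was nearer to IPA than to the other 2 Trp libraries. Crybb1 rose 2.37-fold in Trp against HFD, a log2 fold change of 1.24 (SE 0.23, edgeR adjusted p = 0.0415), the largest of the 38. That call was lost in 10 of 24 alternatives, among them those without HFD 1, HFD 2, Trp 2, Trp 3 or any of the 3 IPA libraries, with edgeR adjusted p up to 0.251. Ly86, the gene of MD-1, which pairs with the receptor RP105, stood at 3.92, 4.18 and 3.28 CPM in the HFD mice, at 3.80, 3.90 and 3.07 in the IPA mice, and at 5.67, 6.32 and 6.99 in the Trp mice (log2 difference 0.74, SE 0.17, edgeR adjusted p = 0.108).

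The second comparison asked what gavage with IPA did on the same diet. Microglia identity genes lay on both sides of 0, with 22 above and 16 below, where 48.9% of all genes were above 0. The median was 0.06 and the range −0.39 to 0.69. In edgeR 0 members passed in either direction, where 0.00535% of all genes did, and DESeq2 called 0 members higher, where it called 0.526% of all genes. At an unadjusted p under 0.05, 1 member was higher (Ltc4s) and 1 lower (Cyth4), beside 4.95% and 5.46% of all genes. The IPA libraries lay wholly above HFD for 4 members (Siglech, Cd53, Entpd1 and Ltc4s) and wholly below it for 2 (Cd33 and Cyth4), which is 10.5% and 5.26% of the members beside 7.19% and 8.01% of all genes. For Csf1r the 95% interval of the log2 difference ran from −0.27 to 0.25, for Aif1 from −0.33 to 0.43 and for Selplg from −0.03 to 0.50, so changes of that size were not resolved with 3 libraries a group.

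The third comparison set the Trp and IPA groups against each other. Again 37 of 38 members had a log2 fold change above 0, beside 51.9% of all genes, with a median of 0.43 and a range of −0.03 to 0.94. In edgeR 0 members passed, as did 0% of all genes, and 23 members were higher and 0 lower at an unadjusted p under 0.05, beside 2.43% and 2.07%. DESeq2 called 3 (Selplg, Csf1r and Ly86), where it called 0.0764% of all genes higher. Every Trp library lay above every IPA library for 26 members (68.4%), beside 5.61% of all genes, and among the 16 surface receptors for 15. The reverse held for 0 members, beside 5.55% of all genes. The log2 difference was 0.69 for Selplg (SE 0.12, edgeR adjusted p = 0.252), 0.58 for Csf1r (edgeR adjusted p = 0.542) and 0.94 for Crybb1 (edgeR adjusted p = 0.987). The median was 0.31 without Trp 3. The Trp libraries serve in both this and the first comparison, so the values of the 2 are not independent.

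The libraries of a group differed among themselves in a way that members shared. Trp 3 was the highest of the Trp libraries for 34 of 38 members (89.5%), where it was highest for 37.7% of all genes. Trp 1 was the highest for 2 members (5.26%), beside 35.3% of all genes. HFD 1 was the highest HFD library for 23 members (60.5%), beside 32% of all genes. Of the 38 members, 24 in Trp 1, 28 in Trp 2 and 35 in Trp 3 exceeded every HFD library, beside 25.3%, 25.5% and 25.5% of all genes. In IPA 1 to 3 the numbers were 13, 11 and 11, beside 22.8%, 23.7% and 26.9%. Among the 37 members with a mean above 1 CPM, the median coefficient of variation came to 11.7% among HFD libraries, 9.47% among IPA libraries and 15.1% among Trp libraries.

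Other genes of the same biology were read from lists that were also drawn up with earlier results known. Of 26 further microglial genes (complement C1q, Fc receptors, cathepsin S and others) 25 had a log2 fold change above 0 in Trp against HFD, beside 49.5% of all genes, with a median of 0.71. In edgeR 7 rose, among them Ctss, Fcgr3, Mertk and Havcr2, beside 0.214% of all genes called higher. Over the alternatives 2 to 12 passed, where 0.027% to 2.18% of all genes were called higher. Averaged over the list, log2 CPM came to 2.52 ± 0.07 for the HFD mice, 2.61 ± 0.01 for the IPA mice and 3.12 ± 0.17 for the Trp mice (SD over n = 3), beside 2.86 ± 0.09, 2.92 ± 0.01 and 3.33 ± 0.18 for the 38 identity genes. Of 16 tested genes that signal behind myeloid receptors, such as Vav1, 14 were above 0, with a median of 0.40, and 0 passed. Of 22 genes known to go up in activated microglia, Itgax, Clec7a, Cst7, Ccl3 and Ccl4 fell to the filter on low counts. The 17 tested included Fth1 and Apoe, with mean levels of 2680 and 1030 CPM in the HFD mice. All 38 identity genes together summed to 401 to 457 CPM there, and the part of other cells in this list was not tested. Of these 17 tested genes 14 were above 0, with a median of 0.13, and 0 passed. The 2 with the smallest p went opposite ways: the log2 difference was −0.58 for Igf1 (edgeR adjusted p = 0.251) and 0.26 for Ctsl (edgeR adjusted p = 0.296), neither past the threshold. The 17 genes of niche ligands and TGF-beta signalling had a median of −0.08, with 10 below 0, and 0 passed. The 2 with the smallest p were Nrros and Mef2c. Nrros, which holds latent TGF-beta on microglia, differed by 0.79 (edgeR adjusted p = 0.0991). Mef2c, a factor gene also expressed in neurons, differed by −0.46 (edgeR adjusted p = 0.182). The mean of Mef2c alone was 563 CPM in the HFD mice, above the sum of all 38 identity genes. The part of neurons in it was not tested. The survival ligand genes Csf1 and Il34 differed by −0.23 and 0.03, and the fractalkine gene Cx3cl1 by 0.00. The 8 proliferation genes had a median of −0.23 and 0 passed.

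**Figure D5:**
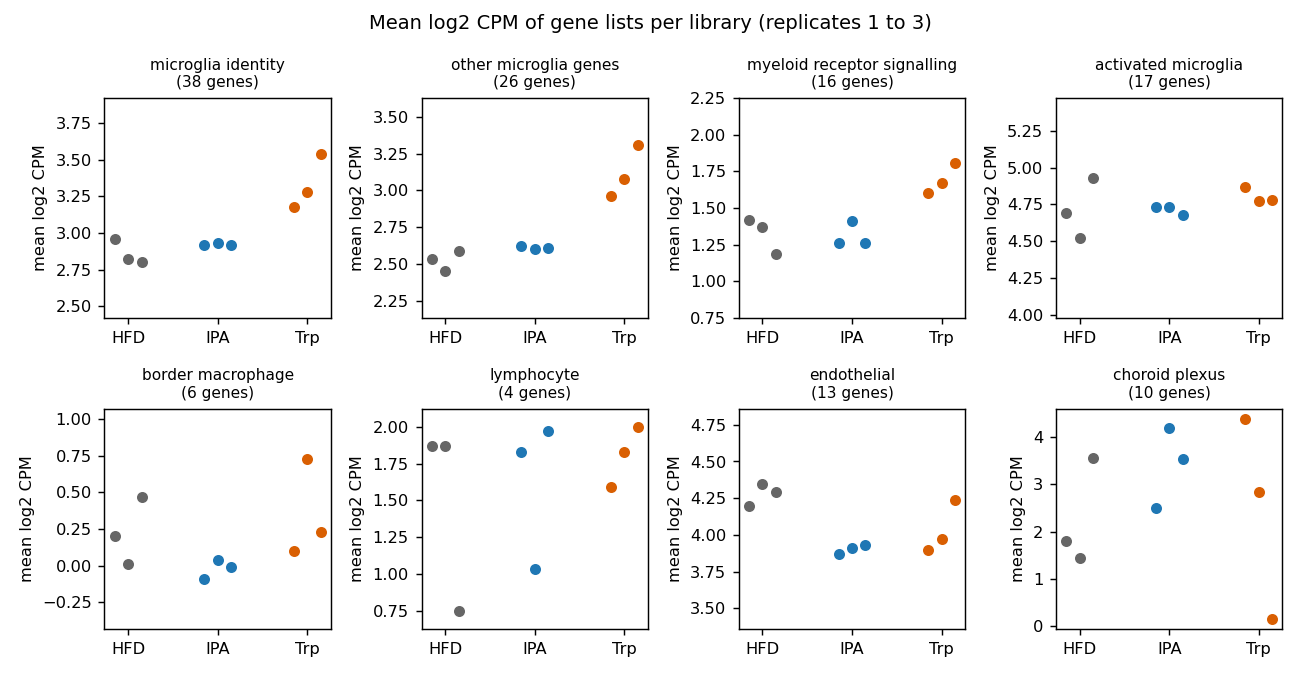
Each panel gives the mean log2 CPM of a gene list in each library, with points for replicates 1 to 3, and the vertical scale differs between panels. The 38 microglia identity genes lie at 2.80 to 2.96 in HFD, 2.92 to 2.93 in IPA and 3.18 to 3.54 in Trp, and the 26 other microglial genes follow the same order.

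Other cells that carry some of these transcripts were checked by their own markers. Of 10 markers of macrophages at the brain's borders 6 were tested, 0 passed and the median was 0.14. They summed to 10.3 to 11.8 CPM in HFD, 8.38 to 10.2 in IPA and 11.1 to 13.9 in Trp, where the 38 identity genes summed to 401 to 457, 423 to 433 and 513 to 650. Of 14 monocyte and neutrophil markers 2 were tested, 0 passed, 3 (Camp, Elane and Retnlg) were at 0 in all libraries, and the whole list summed to 0.2 to 2.37 CPM in any library. Of 14 lymphocyte markers 4 were tested, with 0 past the threshold and sums of 21.5 to 49.3 CPM in HFD, 41.2 to 47.6 in IPA and 37.1 to 48.0 in Trp. Neuron and astrocyte lists had medians of −0.03 each, oligodendrocyte and endothelial lists of −0.32 each, all with 0 passing. Ependymal, choroid plexus and striatal lists had medians of 0.37, 0.80 and 0.43, with Tekt4 alone passing. Of their tested genes 9 of 10, 10 of 10 and 12 of 12 were above 0. Red blood cell genes had a median of −1.83, with 0 of 6 above 0 and 0 passing. Hippocampal principal cell genes had a median of −0.62, with 1 of 10 above 0 and 0 passing. A sign shared by most genes of a list was thus not particular to the microglial lists. The part of these other cells in the microglial values was not tested, apart from the fits with covariates: 4 members passed with the striatal mean as a covariate, where 0.669% of all genes were called higher, and 7 with the choroid plexus mean, where 0.38% were.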

How the data were processed

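RNA of 9 libraries (3 each of HFD, IPA and Trp) had been captured on oligo(dT) beads, per the labels' protocols. StringTie 2.1.3b and mm10 are named in the submitters' processing notes. No source used here gives the aligner, counting tool, annotation or strand setting. The deposited table holds whole-number counts per gene and library and, per the file headers, FPKM, which the authors scaled to gene length and library size. Fold changes, p-values and q-values of the authors' deposited table were copied as given, with a dash where a gene has none. All library columns were mapped, with 0 left over. Of the 38 members 37 had the chromosome and length of GENCODE M21 (GRCm38) and 1 its position, so the build of the table's coordinates is not settled. GENCODE served for this comparison, for overlaps with other genes and for the check of the promoter starts. Exons of 7 members overlapped those of a gene on the other strand: Csf1r, Cx3cr1, P2ry12, Runx1, Lpcat2, Ltc4s and Golm1.

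Counts were fitted in R 4.3.3 with edgeR 4.0.16: filterByExpr (minimum count 10), TMM scaling, robust quasi-likelihood fit of 1 mean per group to all 9 libraries. Two-sided tests were used, and a gene passed at an adjusted p under 0.05 (Benjamini-Hochberg) over all 18690. CPM are counts scaled to TMM-adjusted library size. Log2 CPM used a prior count of 2. Depending on the library, 0 counts allow a level of 0.0584 to 0.0751 CPM (3 counts, counting error only). The labels say there were 3 mice in each group. They do not say that no RNA was pooled. An exact permutation test of 3 against 3 cannot go below 0.1. The procedure was tested on simulated data. Alternatives used DESeq2 1.42.0 and limma 3.58.1, and figures Python 3.11.15 with matplotlib 3.10.9.

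The members, their roles, the other lists and the rule for naming genes were chosen with earlier results of these data known. Named are members that pass in any comparison, 13 core markers, the 2 with the smallest p per role (Trp against HFD) and, per other list, up to 2 with the smallest p or up to 4 that pass. Gpr34, P2ry13, Cd53, other members named as exceptions, the promoters shown and the ligand genes were picked after their values were seen.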

Additional observations from a re-analysis of the deposited data

How the results depend on the processing

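For Trp against HFD the median log2 fold change of the 38 genes kept its sign in all 23 alternatives (0.33 to 0.55, and 0.36 to 0.51 when 1 library was left out). The number of members that passed was less stable. It was 13 with DESeq2 (1.06% of all genes called higher) and 6 without the filter on low counts (0.187%). With limma on log2 FPKM at pseudocounts of 0.5 and 1 it was 4 (0.399% each). It was 4 with the striatal covariate (0.669%) and 7 with the choroid plexus covariate (0.38%). At an adjusted p under 0.1 it was 6, where 119 genes were called in either direction, and under 0.01 it was 1 (0.0535%). It was 0 with only the 6 libraries compared (0.027%), and 1 to 5 when 1 library was left out (0.047% to 0.863%). Chosen after seeing the data, the fit without HFD 3 and Trp 3 gave 4, where 2.18% of all genes were called higher, and that without HFD 3 and Trp 1 gave 8, where 0.559% were. Over all these fits 0.027% to 2.18% of all genes were called higher. The cause of these shifts was not tested. For IPA against HFD 0 members passed in all 25 alternatives, and the median ran from −0.01 to 0.14 (0 to 0.11 with 1 library left out). For Trp against IPA 3 passed with DESeq2, where 0.0764% of all genes were called higher, and 2 without HFD 3 and Trp 1, where 0.0369% were. In the other 23 alternatives 0 passed, 0 to 0 with 1 library left out. The median was 0.31 to 0.50 with 1 library left out, and 0.31 without HFD 3 and Trp 3. RLE and upper quartile scaling gave 3 and 2 calls for Trp against HFD, where 0.225% and 0.209% of all genes were called higher. With the replicate number as a block 1 member passed for Trp against HFD, where 0.0963% of all genes were called higher. The numbers did not pair the libraries: deviations of same-numbered libraries from their group means correlated at −0.196 to 0.0479. With 3 libraries a group and members at about 1 CPM (Spi1, Runx1), differences under their 95% intervals could not be resolved.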
